A study of Mus musculus with 2 samples.

Results

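The genes described here are the hairpin genes of the pluripotency microRNA clusters of the mouse, Mir291a, Mir292, Mir291b, Mir293, Mir294 and Mir295 on chromosome 7 and Mir302b, Mir302c, Mir302a and Mir302d on chromosome 3. They were chosen by name, through the annotated symbol of each identifier, and all 10 have an entry among the 1973 microRNA genes of the count tables. MicroRNA sequencing was done on total RNA from livers taken at postnatal day 0 from B6NCrl mice, with inserts below 30 bases. Pup 1 is replicate 1 and its littermate pup 2 is replicate 2, their sex was not collected, and neither a treatment nor another tissue or age was included. The data therefore form 1 group of 2 livers.

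The Mir290 cluster, to which the chromosome 7 genes belong, is the most abundant source of microRNAs in mouse embryonic stem cells and is driven there by the core pluripotency factors. The Mir302 cluster follows as cells pass towards the epiblast state, and it is used to help reprogramme somatic cells. Products of both clusters speed entry into S phase by repressing inhibitors of the cell cycle, and both clusters are switched off as cells differentiate. The let-7 family, which accumulates in differentiated tissue, is known to oppose them. The question addressed was how much of either cluster was counted in the newborn liver, and which hairpins the counts came from.

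A mature microRNA finds its targets mainly through its seed, bases 2 to 8 from the 5′ end, so the seeds are what ties the clusters together. RefSeq (GRCm38.p6, the assembly also called mm10) listed 18 mature arms for the 10 genes, 10 from the 5p side and 8 from the 3p side. The 3p arms of the chromosome 7 genes follow, 5′ to 3′, with the seed in capitals.
mmu-miR-291a-3p: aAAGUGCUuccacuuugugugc
mmu-miR-291b-3p: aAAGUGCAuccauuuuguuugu
mmu-miR-293-3p: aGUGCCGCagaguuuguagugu
mmu-miR-294-3p: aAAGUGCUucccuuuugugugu
mmu-miR-295-3p: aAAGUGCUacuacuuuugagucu
Those of the chromosome 3 genes are given in the same way.
mmu-miR-302b-3p: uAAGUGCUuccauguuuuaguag
mmu-miR-302c-3p: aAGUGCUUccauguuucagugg
mmu-miR-302d-3p: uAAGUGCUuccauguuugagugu
For Mir292 and Mir302a the table lists no 3p arm, so their 3p seeds could not be compared. Their listed arm is the 5p arm.
mmu-miR-292a-5p: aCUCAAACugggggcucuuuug
mmu-miR-302a-5p: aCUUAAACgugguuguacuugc

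The seed AAGUGCU was shared by 5 arms, 3 from chromosome 7 (Mir291a, Mir294 and Mir295) and 2 from chromosome 3 (Mir302b and Mir302d), and by no other arm in the RefSeq table. The arm of Mir291b carries AAGUGCA, a seed that it shares with Mir350. The listed arm of Mir302c starts 1 base further in and so carries AGUGCUU. The hexamer AAGUGC lay within the first 8 bases of 7 of the 8 3p arms listed here and of 0 of the 10 5p arms, against 1.04% of all 1738 mature arms. The arm without it belongs to Mir293. The 5p arms have a motif of their own: on chromosome 7, 4 of 6 open with ACUCAAA, those of Mir292, Mir293, Mir294 and Mir295. Outside the seed the 3p arms diverge. Arms with the seed AAGUGCU were 3 to 8 edits apart, with a median of 5.5 over 10 pairs, and the closest pairs were Mir291a with Mir294 and Mir302b with Mir302d, each 3 edits apart.

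The chromosome 7 genes lie on the plus strand within 1923 bases, chr7:3218919-3220841 (mm10). All 6 overlap an exon of the 1 annotated Nlrp12 transcript there, which runs on the minus strand. The chromosome 3 genes lie on the plus strand within 462 bases, chr3:127545228-127545689, in an intron of Larp7, a minus-strand gene whose product binds the 7SK RNA. Hairpins were 69 to 84 bases long on chromosome 7 and 66 to 74 on chromosome 3, with a GC content of 41.2% to 53.7% and of 39.2% to 47.1%. The listed arms of all 10 genes are 22 or 23 bases long, so counts were compared between genes without scaling for length.

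Depth limits what can be said of genes this weak. Replicate 1 held 3422622 counts on the strand of a microRNA gene and replicate 2 held 4538427. Levels are counts per 1000000 of these (CPM), as the mean ± SD over n = 2 pups. A single count is worth 0.292 CPM in the library of pup 1 and 0.220 CPM in that of pup 2. A count of 0 was taken to allow up to 3 counts, a fixed limit of 0.877 and 0.661 CPM. Intervals, unlike this limit, are exact at 95% for independent counts and cover counting error only. Copies made by PCR are not independent molecules, so the intervals may be too narrow. The liver label was met by Mir122, the defining microRNA of hepatocytes, at 348624 ± 8931 CPM, rank 1. In whole liver, fewer cells of a type and less RNA per cell cannot be told apart.

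Both clusters were counted in both livers at very low levels, and the Mir290 cluster made up most of it. The 6 chromosome 7 genes together had 359 counts, 105 CPM (94.3 to 116), in pup 1 and 492 counts, 108 CPM (99.0 to 118), in pup 2, a mean of 107 ± 2.49 CPM. The pups were nearly level in this sum, and their intervals overlapped. The 4 chromosome 3 genes together had 37 and 35 counts, or 10.8 CPM (7.61 to 14.9) and 7.71 CPM (5.37 to 10.7), a mean of 9.26 ± 2.19 CPM. Together the 10 genes took 0.0116% of the microRNA counts in each pup, with intervals of 0.0105% to 0.0128% in replicate 1 and 0.0106% to 0.0126% in replicate 2. All 10 had at least 1 count in both libraries, and 6 had at least 10 in both, a level that 15.8% of the 1973 genes reached. The scale depends on Mir122: per 1000000 of the counts that are left without it, the chromosome 7 sum was 164 CPM and the chromosome 3 sum 14.2 CPM.

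The clusters were compared within each liver. The chromosome 7 sum was 9.70 times the chromosome 3 sum in replicate 1 (6.91 to 14.01) and 14.1 times in replicate 2 (9.97 to 20.4), a mean of 11.9 ± 3.08. Per gene, to allow for 6 genes against 4, it was 7.92 ± 2.05 times higher. The excess was present in both pups and was larger than the spread between them, although with 2 pups the smallest two-sided p of an exact permutation test that flips signs is 0.5, which is the p it gave. The ratio rests on few counts on chromosome 3 and on how the genes are counted. Without the 4 genes whose hairpin shares 20 bases with another microRNA hairpin it was 27.4, and without Mir294, left out after its value was seen, it was 7.08. The sums differed, but the ranges of single genes overlapped: Mir302a and Mir302d lay above Mir295 and Mir291b in mean level. That order was not resolved: in replicate 2 Mir295 (4.41 CPM) was above Mir302a (3.08 CPM) and Mir302d (2.64 CPM).

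**Figure D1:**
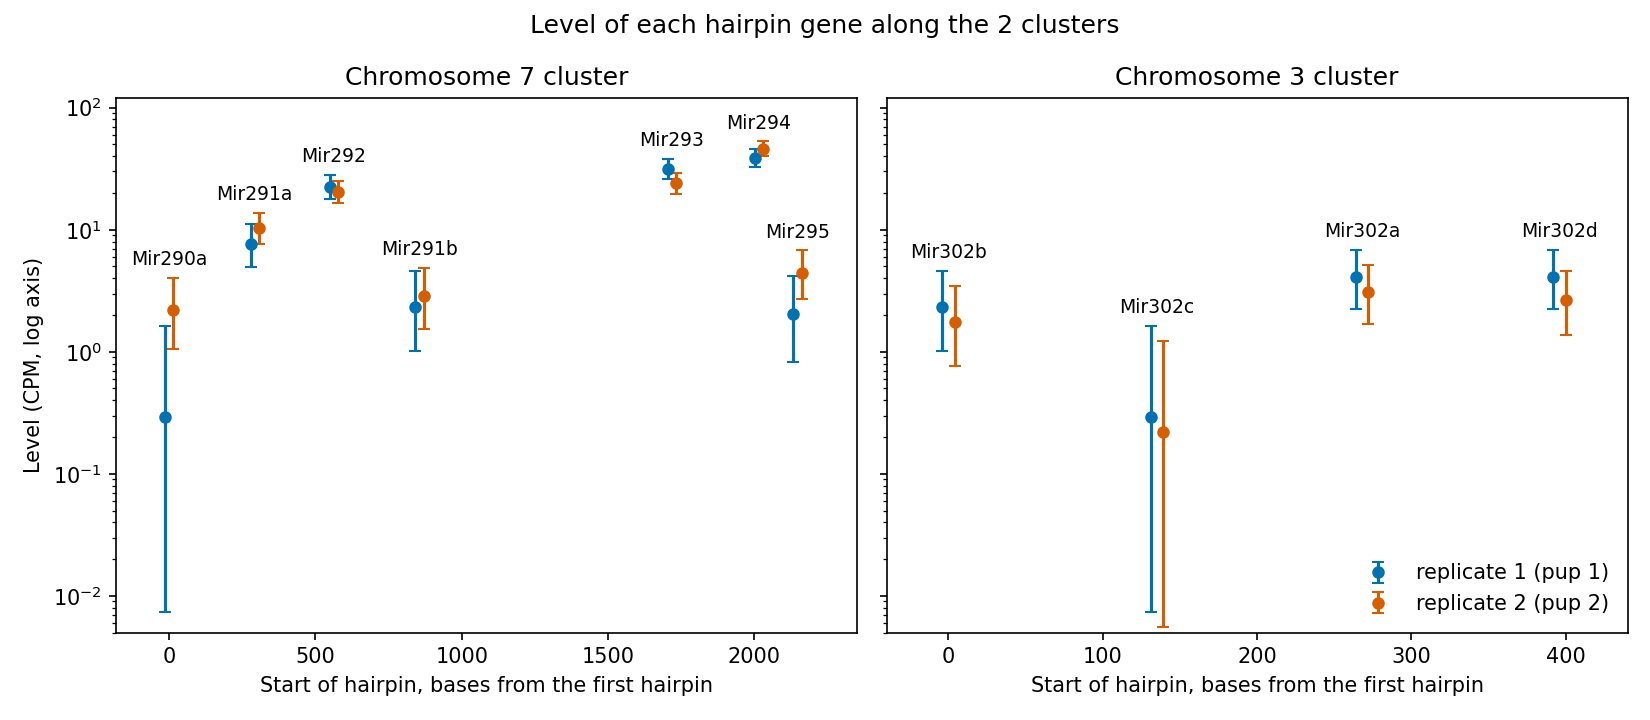
Level of each hairpin gene in CPM on a log axis against the start of its hairpin in bases from the first hairpin of its cluster (Mir290a on chromosome 7, Mir302b on chromosome 3), with 1 point per pup and exact 95% Poisson intervals. Mir294, Mir293 and Mir292 stand above all others in both pups, and Mir295, next to Mir294, sits between 2.05 and 4.41 CPM.

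Within the chromosome 7 cluster, Mir294, Mir293 and Mir292 carried 86.2% ± 3.42 of the counts. Mir294 (ENSMUSG00000077903.1, chr7:3220641-3220724), whose product can restore rapid cycling to stem cells that cannot process microRNAs, was the highest. It had 133 counts (38.9 CPM) in replicate 1 and 210 (46.3 CPM) in replicate 2, a mean of 42.6 ± 5.24 CPM, and ranked 208 among all genes. Its interval ran from 32.5 to 46.1 CPM in the former and from 40.2 to 53.0 CPM in the latter, so the pups overlapped. Mir294 made up 37.0% of the cluster in replicate 1 and 42.7% in replicate 2.

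Mir293 (ENSMUSG00000078035.1, chr7:3220343-3220422), whose listed 3p arm lacks the shared hexamer, came next. It had 108 counts (31.6 CPM) and 109 (24.0 CPM), a mean of 27.8 ± 5.33 CPM. Its share of the cluster was 30.1% in replicate 1 and 22.2% in replicate 2. Mir292 (ENSMUSG00000078041.1, chr7:3219189-3219270) had 77 counts (22.5 CPM) and 93 (20.5 CPM), a mean of 21.5 ± 1.42 CPM. Mir294 was separated from Mir293, with pups that did not overlap and a gap above the sum of the SDs, while Mir293 and Mir292 were not separated. Within replicate 1 alone the ratio of Mir294 to Mir293 was 1.23 (0.948 to 1.60), an interval that includes 1.

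The other chromosome 7 genes were far weaker. Mir291a (ENSMUSG00000078008.1, chr7:3218919-3219000) had 26 counts (7.60 CPM) and 47 (10.4 CPM), a mean of 8.98 ± 1.95 CPM, below Mir292 and separated from it. Mir291b (ENSMUSG00000078032.1, chr7:3219482-3219560), its close copy 481 bases downstream, had 8 counts (2.34 CPM) and 13 (2.86 CPM), a mean of 2.60 ± 0.373 CPM. The Mir291a count was 3.25 times that of Mir291b in replicate 1 (1.43 to 8.31) and 3.62 times in replicate 2 (1.92 to 7.28). Mir291a was thus higher in both pups, with an interval above 1 in each.

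Mir295 (ENSMUSG00000077886.1, chr7:3220773-3220841) is the last hairpin of the cluster and starts 48 bases after the end of Mir294. It had 7 counts (2.05 CPM) and 20 (4.41 CPM), a mean of 3.23 ± 1.67 CPM. The Mir294 count was 19.0 times that of Mir295 in replicate 1 (8.97 to 48.2) and 10.5 times in replicate 2 (6.63 to 17.5). These neighbours have the same 3p seed. Mir294 against Mir302a, from the other cluster, gave 9.50 times in replicate 1 (5.47 to 17.8) and 15.0 times in replicate 2 (8.74 to 27.9).

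The members of each cluster that lie outside the list of 10 were near the limit. Mir290a, the hairpin that opens the chromosome 7 cluster, had 1 count (0.292 CPM) in replicate 1 and 10 (2.20 CPM) in replicate 2. Its log2 ratio was 2.91 (0.10 to 8.35; exact binomial adjusted p = 0.0896). Mir367, which closes the chromosome 3 cluster and has an unrelated seed, had 0 counts in both libraries. Mir290b and Mir292b, hairpins annotated on the minus strand across Mir290a and Mir292, have no entry in the tables used here.

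On chromosome 3 the counts were too few to rank most hairpins. Mir302a (ENSMUSG00000065552.1, chr3:127545496-127545564) had 14 counts in each library, which is 4.09 CPM (2.24 to 6.86) for pup 1 and 3.08 CPM (1.69 to 5.18) for pup 2. Mir302d (ENSMUSG00000065447.1, chr3:127545624-127545689) had 14 counts (4.09 CPM) and 12 (2.64 CPM), and Mir302b (ENSMUSG00000076252.1, chr3:127545228-127545301) had 8 in each library, 2.34 and 1.76 CPM. Mir302c (ENSMUSG00000065482.1, chr3:127545363-127545430), with the shifted arm, had a single count in each, 0.292 and 0.220 CPM, under the level that a count of 0 allows. Mir302b had 8 times the count of Mir302c in each pup, with an interval of 1.07 to 355.

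Shares within the cluster were similar in the pups, with wide intervals. Mir302a held 37.8% (22.5% to 55.2%) and 40.0% (23.9% to 57.9%) of the chromosome 3 counts, and Mir302d held 37.8% and 34.3%. Over all 10 genes in order of mean level, 4 of the 9 neighbouring pairs were separated: Mir294 above Mir293, Mir292 above Mir291a, Mir291a above Mir302a and Mir302b above Mir302c. In replicate 1 alone, Mir291a over Mir302a was 1.86 (0.935 to 3.85), within counting error. The order of Mir302a, Mir302d, Mir295, Mir291b and Mir302b was not resolved between neighbours.

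Counting itself bears on these levels, since reads that mapped to several loci are on no gene. Such reads made up 25.2% of the library of pup 1 and 24.7% of that of pup 2. Mir291a and Mir291b share a stretch of 20 bases that lies wholly inside their 5p arms, shown in capitals.
mmu-miR-291a-5p: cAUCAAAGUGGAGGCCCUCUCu
mmu-miR-291b-5p: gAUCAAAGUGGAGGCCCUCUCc
Mir302a and Mir302b share 20 bases as well, 18 of them inside the 3p arm of Mir302b, and Mir302d shares 17 with each of them. A read trimmed to these bases fits more than 1 locus, so counts of Mir291a, Mir291b, Mir302a and Mir302b may be too low by an unknown amount. Mir294, Mir293, Mir292 and Mir295 share at most 14 bases with any other hairpin that does not overlap them.

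The pups were then compared gene by gene. By an exact binomial test, adjusted over 390 genes after Benjamini and Hochberg, 0 of the 9 members with enough counts to be tested differed between the libraries, where 118 of the 390, or 30.3%, did. Most called genes are far more abundant. Among the 142 tested genes whose total count lay in the range of these members, 16 to 343, the share called was 9.15%. The negative binomial exact test of edgeR, which takes the spread between the pups as noise, also called 0 of the 9, against 2 of 390 genes or 0.513%. Mir302c had too few counts to be tested. Both tests compare these libraries, not conditions.

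At an unadjusted p below 0.05, the binomial test found 1 of the 9 and the negative binomial test 0. That gene was Mir293, lower in replicate 2 with a log2 ratio of -0.39 (-0.79 to 0.00; exact binomial p = 0.0467, adjusted p = 0.134). Mir294 went the other way, with a log2 ratio of 0.25 (-0.07 to 0.58; exact binomial adjusted p = 0.281). Mir295 had the widest gap, 1.11 (-0.19 to 2.59; exact binomial adjusted p = 0.208), on 7 and 20 counts. Mir292 stood at -0.13 (-0.59 to 0.32), Mir291a at 0.45 (-0.27 to 1.20) and Mir291b at 0.29 (-1.09 to 1.77).

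All 3 tested chromosome 3 genes were lower in replicate 2, with log2 ratios of -0.41 for Mir302a and Mir302b and -0.63 for Mir302d (exact binomial adjusted p = 0.671, 0.800 and 0.535). Their sum had a log2 ratio of -0.49 (-1.20 to 0.22), and the chromosome 7 sum one of 0.05 (-0.15 to 0.25). The intervals of both sums include 0. Over the 9 tested members the median log2 ratio was -0.13, with 4 higher and 5 lower in replicate 2, beside a median of 0.00 over all 390 genes. An interval that includes 0 does not show that the pups were equal: for Mir302b it ran from -2.02 to 1.20.

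**Figure D2:**
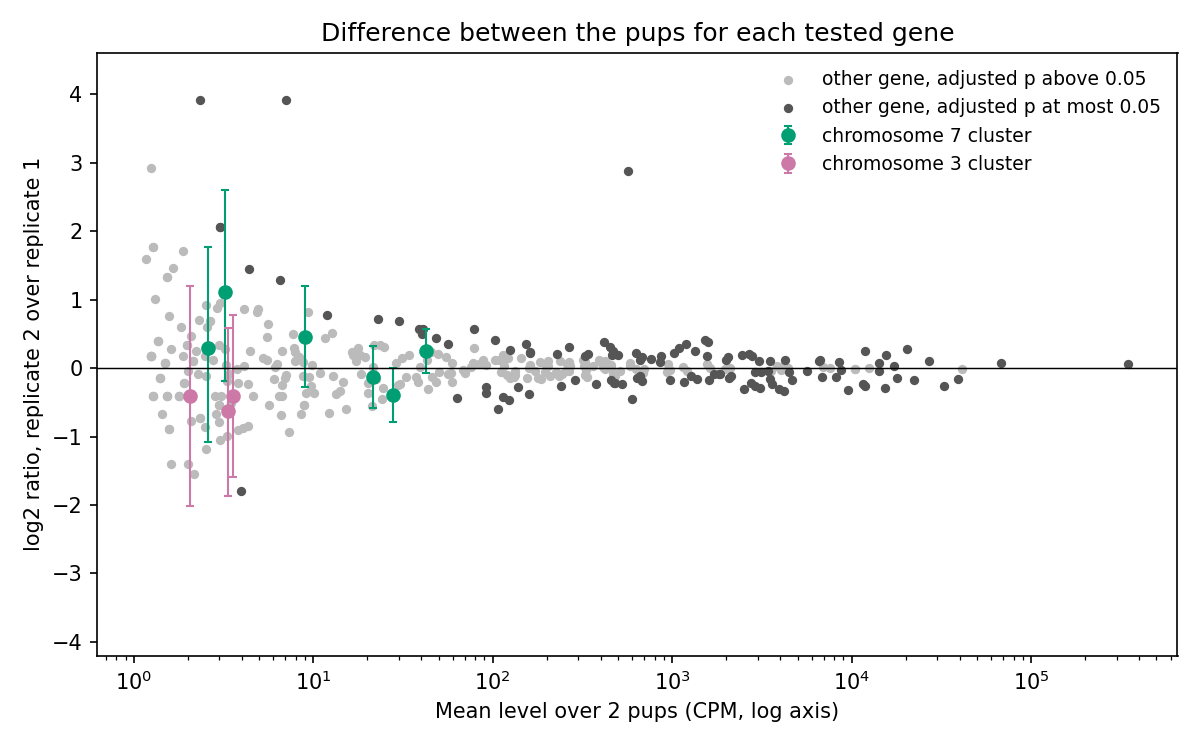
The log2 ratio of replicate 2 over replicate 1 for each of the 390 tested genes against the mean level in CPM (log axis), with the 6 chromosome 7 genes and 3 chromosome 3 genes in colour and their exact 95% intervals. No coloured point is a called gene, and the intervals widen from Mir294 at 42.6 CPM to Mir302b at 2.05 CPM.

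The weak clusters were set beside an abundant family with a seed that is offset by 1 base. The Mir17 family, from the Mir17 cluster and its copies, also promotes proliferation and carries AAAGUGC as its seed, so that both families share the hexamer AAGUGC.
mmu-miR-17-5p: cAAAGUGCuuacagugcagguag
mmu-miR-20a-5p: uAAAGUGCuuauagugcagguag
The 6 genes of this family (Mir17, Mir20a, Mir20b, Mir93, Mir106a and Mir106b) had 23096 and 19004 CPM in sum, 182 ± 25.4 times the sum of the 10 cluster genes. Its weakest member, Mir20b, had 354 counts (103 CPM) and 364 (80.2 CPM), which was 2.66 and 1.73 times the Mir294 count of the same pup. No gene of the Mir290 or Mir302 clusters reached any gene of the Mir17 family in either pup.

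By seed, the 5 genes with a listed arm of seed AAGUGCU summed to 54.9 CPM for pup 1 and 65.4 CPM for pup 2, a mean of 60.2 ± 7.43 CPM. The 7 genes with AAAGUGC, which are the Mir17 family and Mir6383, came to the same sum as that family, since Mir6383 had no count. Mir292 and Mir302a have no listed 3p arm and could not be placed by it, so their absence from these sums says nothing of their 3p seeds. These sums are of whole hairpins, since the arms are not told apart. In the comparison of the pups all 6 Mir17 family genes were called lower in replicate 2, with a median log2 ratio of -0.33, for example Mir17 (-0.32) and Mir20a (-0.33). Over all 390 genes 14.4% were called lower, a share that is not matched for abundance. The negative binomial exact test of edgeR called 0 of these 6, with 0 at an unadjusted p below 0.05 and an adjusted p of 1 for each. Mir292, Mir293 and Mir294, the 3 cluster genes with 100 counts or more in total, were not called, and the difference between the families was not tested.

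MicroRNAs known from differentiated cells were far higher. Of 15 listed genes, the let-7 family with Mir98, Mir145, Mir134 and Mir296, 12 had an entry, and Mirlet7e, Mirlet7f-1 and Mir145 had none under those names. An entry named Mir145a was counted but is not part of the list or its sum. These 12 summed to 70669.5 ± 1799 CPM, 610 ± 13.96 times the 10 cluster genes. Between the pups the exact binomial test called 5 of the 12 higher and 4 lower in replicate 2, where it called 15.9% of all 390 genes higher and 14.4% lower. The negative binomial exact test of edgeR called 0 of the 12, with 0 at an unadjusted p below 0.05. The highest were Mirlet7g (41287 ± 223 CPM), Mirlet7i (15528 ± 1492 CPM), Mirlet7d (6653 ± 403 CPM) and Mir98 (3044 ± 157 CPM). At the lower end Mirlet7c-1 (39.3 ± 0.205 CPM) and Mirlet7c-2 (45.8 ± 3.03 CPM) stood within the spread of Mir294. These are uniquely mapped reads per hairpin gene, not levels of a mature microRNA. Reads that fit several let-7 loci are on no gene, so these levels and the sum may be too low by an unknown amount.

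**Figure D3:**
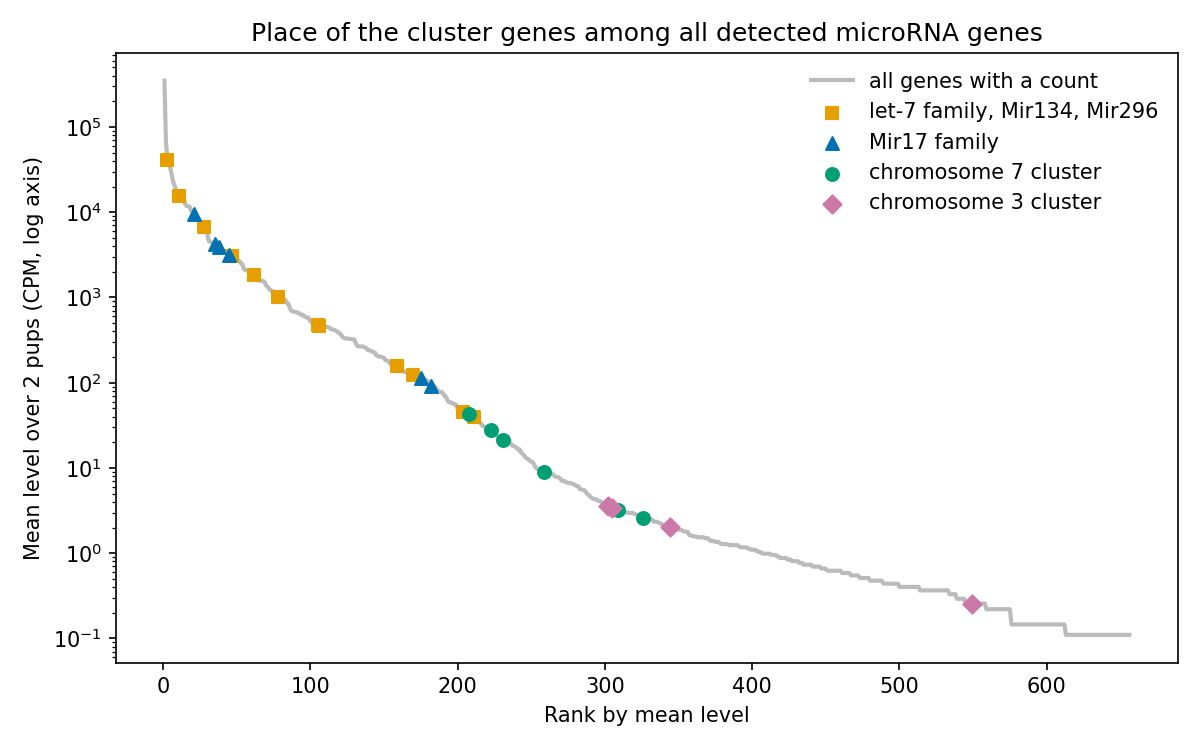
Mean level over 2 pups in CPM (log axis) against rank for all 656 genes with a count, with the chromosome 7 genes, the chromosome 3 genes, the 6 Mir17 family genes and the 12 genes of the let-7 list marked. The cluster genes begin at rank 208 with Mir294, below all 6 Mir17 family genes.

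A selected list of microRNA genes of the X-linked testis clusters, another group tied to germ cells, was set beside them. Not every X-linked gene is on it: Mir201 and Mir547, which are not listed, had at least 10 counts over both libraries. Of the 14 listed genes, all with an entry, 12 had 0 counts in both libraries. Reads that mapped to several loci are on no gene, and shared sequence was not examined for this list. A count of 0 here therefore does not show absence. The exceptions were Mir741 with 0 and 2 counts and Mir881 with 1 and 3, so the whole list had 1 count in replicate 1 and 5 in replicate 2. The 10 cluster genes had 396 and 527. The Mir302 sum of 37 and 35 counts was above the testis list in both pups, and Mir302c and Mir290a in replicate 1 were at its level. The list was chosen with earlier results of these data known, so its level depends on that choice and sets no floor for unlisted genes.

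The genes with levels most like those of the highest member of each cluster were found by the distance in log2(CPM + 1) over the 2 libraries. For Mir294 these were Mir30c-1 (41.2 and 44.7 CPM), Mir181a-2 (41.5 and 48.9 CPM) and Mir770 (33.6 and 47.6 CPM), of which Mir770 was called higher in replicate 2 (log2 ratio 0.50, exact binomial adjusted p = 0.0104) but not by the negative binomial exact test of edgeR (adjusted p = 1). For Mir302a they were Mir378d (14 and 13 counts), Mir6715 (14 and 16 counts) and Mir7240 (12 and 14 counts). With 2 libraries, likeness here means only a similar level in each pup. Reads that mapped to several loci are not counted, and sequence shared with other hairpins was not examined for these nearest genes.

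Strand offered a check that the choice of genes did not use. No opposite-strand count was found at 8 of the 10 genes, among them all 4 on chromosome 3. That is the usual case: of the 312 genes with at least 10 gene-strand counts in both libraries, 277, or 88.8%, had none in either, and so did 4 of the 6 members at that depth. For Mir294 that is 0 of 133 and 0 of 210, with exact upper limits of 2.7% and 1.7%, and for Mir293 the limits were 3.4% and 3.3%. On chromosome 3 the counts were too few for a useful limit: 0 of 14 for Mir302a allows up to 23.2%. The exceptions were Mir291a and Mir292, and Mir292 stood out in both pups, with 13 opposite-strand counts in replicate 1 and 18 in replicate 2. These were 14.4% (7.92% to 23.4%) and 16.2% (9.90% to 24.4%) of its counts on both strands. Of the same 312 genes 2, or 0.641%, had over 10% on the opposite strand in both, Mir292 and Mir3074-1. The annotated minus-strand hairpin Mir292b lies across Mir292, and the origin of the opposite-strand reads was not tested. The 3p arm of Mir292b and the 5p arm of Mir292 come from opposite strands of the same positions. By that placement alone they are complementary over the 19 bases in capitals.
mmu-miR-292a-5p: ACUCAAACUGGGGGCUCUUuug
mmu-miR-292b-3p: AAGAGCCCCCAGUUUGAGUau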

How the data were processed

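The authors deposited raw read counts per microRNA gene, 1 table per library, made on mm10 and GENCODE M4, as the deposited text states. Aligner, counter and trimming are not given in the sources used. The tables have no header, so the meaning of the columns (without strand, gene strand, opposite strand) was taken from their values. The total of uniquely mapped reads is equal across them, which does not tell which column is which. The column read as opposite strand held 4.64% of the stranded counts in replicate 1 and 4.50% in replicate 2. Gene-strand counts were used. Rows that name no gene stayed out of library sizes (8.87% and 9.92% of uniquely mapped reads were not on the gene strand of a microRNA gene, opposite-strand reads included). Symbols, coordinates and hairpins are those of GENCODE M21 (mm10 too), and 1894 of 1973 identifiers had a symbol there. Mature sequences came from RefSeq.

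CPM, exact Poisson and Clopper-Pearson intervals and the two-sided exact binomial test (given the gene's total and library totals, at least 10 counts over both libraries, Benjamini-Hochberg at 0.05) were computed with scipy 1.17.1. A quasi-likelihood test needs a second group. The alternatives used edgeR 4.0.16 (common dispersion, TMM) and DESeq2 1.42.0 size factors. Neighbouring levels count as separated where pups do not overlap and the gap exceeds the sum of SDs.

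Named genes were the members, the other genes of the clusters, up to 4 of the highest of each list, and the 3 genes nearest to the highest member of each cluster. Mir20b, Mirlet7c-1, Mirlet7c-2, Mir741, Mir881 and Mir3074-1 were named after their values were seen. The members and lists were chosen with earlier results of these data known. Hepatocyte, endothelial (67576 CPM), blood (13380 CPM) and mesenchymal (14925 CPM) markers checked the tissue. The mesenchymal sum is of Mir143 and Mir214, without the entry named Mir145a.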

Additional observations from a re-analysis of the deposited data

Results flagged for a closer look

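Reads on the strand opposite to the gene, which the comparisons of levels do not use, exceeded the 3 counts that a count of 0 allows at 3 genes of the chromosome 7 cluster. Mir292 had 13 in replicate 1 and 18 in replicate 2, or 3.88 ± 0.119 CPM. Mir291a had 7 in replicate 1 and 2 in replicate 2. Mir290a, outside the list of 10, had 1 in replicate 1 and 4 in replicate 2. Mir292b and Mir290b are annotated on that strand at Mir292 and Mir290a, and the Nlrp12 transcript runs on that strand at Mir291a and Mir292; the origin of these reads was not tested.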

How the results depend on the processing

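Leaving out genes with 20 bases in common with another hairpin, the chromosome 7 level was 95.1 CPM, the chromosome 3 level 3.62 CPM and their ratio 27.4. Per 1000000 uniquely mapped reads the chromosome 7 level was 96.6 CPM. Without Mir122 in the total, the levels were 164 and 14.2 CPM. These shifts follow from fewer genes or another total. Without Mir294, an alternative chosen after seeing the data, the ratio was 7.08. Adding Mir290a and Mir367 gave a ratio of 12.04. Leaving out either pup gave ratios of 9.70 and 14.1, the values of the single pups. Counts without strand moved the level of Mir292 to 24.2 CPM, since they add opposite-strand reads. The negative binomial exact test called 2 genes in place of 118, and the other 5 alternatives called 112 to 123. No member was called under any of these 6 alternatives, and all 48 recomputed log2 ratios of members kept their sign. With a minimum of 100 counts only 3 members could be tested. TMM and DESeq2 size factors shifted log2 ratios by 0.01 or less. No paired analysis was possible because there is only 1 group. Depth limits the 4 chromosome 3 genes and Mir291b, at 14 counts or fewer in each library, and Mir295, at 7 in replicate 1.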
